A study of Mus musculus with 2 samples.

Results

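The genes described here are 9 genes of the channels and signals that drive and spread contraction along the ureter, measured in mouse ureters at E14.5 with and without Rbpj in the ureteric mesenchyme. Members were all gene probes of the array whose gene name in both array files is Hcn2, Hcn3, Hcn4, Cacna1c, Cacna1g, Cacna1h, Ano1, Kit or Gja1, which gave 14 probes of 9 genes, of 39429 probes and 29924 gene names in all. Each probe is a DNA oligonucleotide printed at 4 spots per array. RNA of both genotypes was labelled with different dyes and hybridised together on each of 2 Agilent arrays. The Rbpj-cKO embryos were Tbx18(cre/+);Rbpj(fl/fl) on the NMRI strain, so that the Cre recombinase came from one Tbx18 allele, a gene of the mesenchyme around the ureteric epithelium. Controls were Rbpj(fl/?) NMRI embryos, whose other Rbpj allele is not given and for which no Cre allele is listed. Replicate 1 held male embryos with Rbpj-cKO in red, and replicate 2 held female embryos with Rbpj-cKO in green. The number of embryos pooled for each channel is not given. Sex, dye orientation and embryo pool change together between the arrays and cannot be told apart.

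The ureter carries urine to the bladder by peristalsis, waves of contraction that start near the kidney and travel down a coat of smooth muscle. HCN channels pass an inward current when the membrane is hyperpolarised and act as pacemakers in heart and nerve cells, and T-type calcium channels open at similarly negative voltages. L-type calcium channels then admit the calcium that makes smooth muscle contract, and gap junctions pass the excitation between cells. In the gut, the pacemaker cells are interstitial cells of Cajal, which need the receptor tyrosine kinase Kit and carry the chloride channel Ano1. At E14.5 the mesenchyme of the mouse ureter has not yet formed a contracting muscle coat. Rbpj is the DNA-binding partner of the Notch receptors' intracellular domain, and the comparison addresses whether the levels of these genes differ when the mesenchyme lacks it.

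The sequences below are the probes on which the results turn, given because several results rest on a single probe or differ between the probes of a gene. All lie on mm9, per the file headers. The Cacna1c probe A_55_P2014154 (chr6:118544079-118544138, minus strand) and the Cacna1g probe A_55_P2132756 (chr11:94270459-94270518, minus strand) are shown whole. Of the others the first 30 of 60 bases are shown. In the 30-base stretches capitals mark the longest run of G and C, and in the Cacna1g probe they mark a final stop codon that closes its single open sense frame. The stretches belong to the Hcn2 probes A_55_P2088202 (chr10:79198412-79198471, plus strand) and A_55_P2088203 (chr10:79198592-79198651, plus strand), the second Cacna1c probe A_55_P2235931 (chr6:118537316-118537375, minus strand) and the Kit probe A_66_P128434 (chr5:76052394-76052453, plus strand). The array files name no exon or untranslated region for them.
Hcn2 A_55_P2088202: tGCGCCCGGCtgtccccccatcgccctgcg
Hcn2 A_55_P2088203: agaatatggatcaagtgcaatactCGGCCC
Cacna1c A_55_P2014154: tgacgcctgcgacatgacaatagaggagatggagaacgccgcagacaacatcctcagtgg
Cacna1c A_55_P2235931: ctgtgtgagaCGCtactgtatattcctgta
Cacna1g A_55_P2132756: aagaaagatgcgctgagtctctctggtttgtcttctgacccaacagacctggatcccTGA
Kit A_66_P128434: gtcaggtacttaaGGGGCCacaccattgag

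On the arrays as a whole, 26980 probes were tested, and the targeted gene Rbpj had log2 ratios of -1.13 and -0.63 by its brighter probe (limma adjusted p = 0.713) and of -0.48 and -0.37 by its other one. Ratios in this account are log2 of Rbpj-cKO over control, in the order replicate 1, replicate 2, and means are given ± SD over n = 2 arrays. Between the arrays, the ratios of all tested probes were negatively correlated (r = -0.365, across probes, which are not independent replicates). The dyes are stated in the labels and each ratio was turned by them. After turning, a probe with the same dye higher on both arrays has opposite signs. The part of the dyes in this correlation was not tested. The median SD among the spots of a probe was 0.041 on replicate 1 and 0.055 on replicate 2. The Y-linked transcripts Ddx3y and Eif2s3y stood at 8.04% and 8.89% of the male Rbpj-cKO signal in female Rbpj-cKO, and the part of this in the ratios of replicate 2 was not tested. Smooth muscle markers were detected, 8 of 8 in at least 1 channel, as were 6 of 6 markers of ureteric mesenchyme and 8 of 8 of urothelium. Markers of other cells were detected as fully, with 9 of 9 for neurons and chromaffin cells, 4 of 4 for nephron and stroma, 4 of 4 for erythroid cells and 9 of 9 for skeletal and cardiac muscle, so detection does not separate the ureter from neighbouring tissue.

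Of the 14 probes, 12 probes of 8 genes were well above background on at least 2 spots of 1 channel on each array and entered the test. The 2 others were the Hcn4 probe and the Cacna1c probe A_55_P2014154. In Rbpj-cKO all 12 stayed within 1.5-fold of control on both arrays, with single-array ratios from -0.42 to 0.36. The L-type channel gene Cacna1c was higher and the receptor gene Kit lower on both arrays, each by about 1.2-fold, and 9 probes had opposite signs on the 2 arrays. No probe had a limma adjusted p under 0.05 (0% of all tested probes did), and each of the 12 had an adjusted p of 1. Unadjusted p was under 0.05 for 0 of the 12 and for 1.73% of all tested probes.

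**Figure D1:**
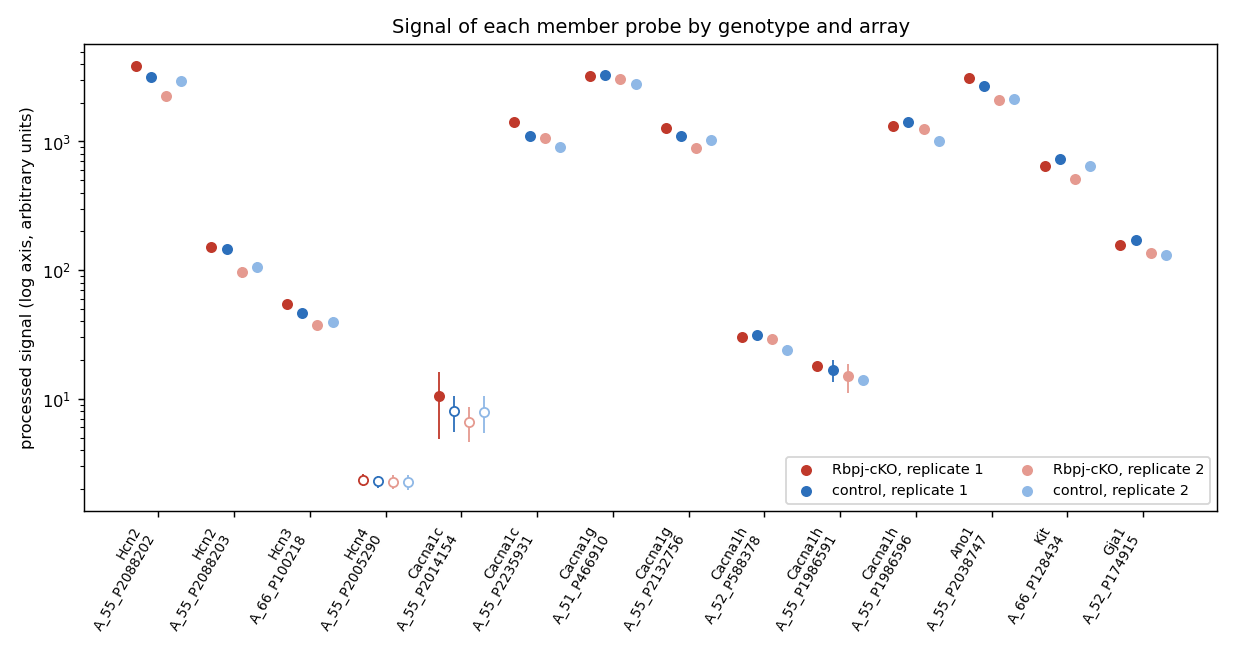
Processed signal (log axis, arbitrary units) of the 14 member probes, for Rbpj-cKO (red) and control (blue) on replicate 1 (dark) and replicate 2 (pale). Points are means and bars SDs over the spots of a probe, and open points mark channels with fewer than 2 spots well above background, as for Hcn4 in all 4 channels. Signals of different probes are not on a common scale.

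The HCN pacemaker channels were represented by Hcn2, Hcn3 and Hcn4. The processed signal of the Hcn2 probe A_55_P2088202 was 3831 in Rbpj-cKO against 3193 in control on replicate 1, and 2254 against 2970 on replicate 2, with spot SDs of 85.3, 22.4, 33 and 24.5. Rbpj-cKO was thus the higher channel on one array and the lower on the other, and red was the higher channel on both. Its ratios were 0.27 and -0.42, a mean of -0.08 ± 0.48, the widest gap between the arrays among the members. The 95% interval of the mean by limma ran from 0.703-fold to 1.28-fold. The second Hcn2 probe, 180 bases along, had signals of 150.7 and 146.5 on replicate 1 and of 96.3 and 106.1 on replicate 2, in Rbpj-cKO and control. It repeated the signs of the first at a smaller size, with ratios of 0.06 and -0.13 and a mean of -0.04 ± 0.14. With the median of probes of like G and C content subtracted, its ratios were -0.0087 and 0.00071, so that it no longer shared the signs of the first.

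Hcn3, an HCN channel described in the pacemaker region of the mouse renal pelvis, was dim but well above background on 4 of 4 spots in each channel (chr3:88951031-88951090, minus strand). Its signal was 54.7 in Rbpj-cKO and 46.4 in control on replicate 1, and 37.8 against 39.7 on replicate 2. The ratios were 0.18 and -0.07, a mean of 0.06 ± 0.18, and the interval of the mean ran from 0.828-fold to 1.31-fold. Replicate 1 exceeded its spot SD of 0.038, while replicate 2 lay close to its spot SD of 0.065. Hcn4, the main HCN channel of the heart's sinus node, had signals between 2.25 and 2.34 in the 4 channels (chr9:58708685-58708744, plus strand) and was well above background on 0 of 4 spots in each. Its level was therefore not measurable in either genotype, and it has no ratio to report.

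Cacna1c encodes the pore subunit of the L-type channel of smooth muscle. Its probe A_55_P2235931 had signals of 1420 ± 83.2 in Rbpj-cKO and 1101 ± 52 in control on replicate 1 (SD over 4 spots). On replicate 2 they were 1066 ± 77.2 and 900.9 ± 52.7. Rbpj-cKO was the higher channel on each array, in red on one and in green on the other, although the lower Rbpj-cKO value fell below the higher control value when the arrays are set side by side. The ratios were 0.36 and 0.24, both beyond their spot SDs of 0.039 and 0.028, with a mean of 0.30 ± 0.086 or 1.23-fold. This was the largest mean in size among the members, larger than that of 97.2% of tested probes, yet it did not pass the test (limma adjusted p = 1), and its 95% interval ran from 0.989-fold to 1.53-fold.

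The second Cacna1c probe, A_55_P2014154, lies 6763 bases away and gave almost no signal. It was well above background on 2 of 4 spots for Rbpj-cKO and 1 of 4 for control on replicate 1, and on 0 of 4 for both on replicate 2. Its signals were 10.5, 8.01, 6.65 and 7.96. It thus met the detection rule of 2 spots in 1 of 4 channels, where A_55_P2235931 met it in all 4, and the higher ratio on both arrays belongs to a single probe. Both carry the same transcript accession in the array files. With 2 ratios per probe, 136 other tested probes had ratios within 0.1 of those of A_55_P2235931 on both arrays. The nearest named ones were Aif1 (0.35 and 0.23), F2r (0.37 and 0.23) and Epas1 (0.37 and 0.23), at distances of 0.013 to 0.015.

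Cacna1g and Cacna1h encode pore subunits of T-type channels, Cav3.1 and Cav3.2. Their probes gave no common direction. The Cacna1g probe A_51_P466910 (chr11:94269863-94269922, minus strand) had signals of 3202 in Rbpj-cKO and 3301 in control on replicate 1, and of 3083 and 2795 on replicate 2. Its ratios were -0.04 and 0.11, a mean of 0.04 ± 0.11. The other Cacna1g probe, 596 bases away, had signals of 1276 and 1111 on replicate 1, and of 893.5 and 1036 on replicate 2. Its ratios of 0.22 and -0.24 were opposite in sign to those of the first on each array, and its mean was -0.01 ± 0.33. The probes differed by 0.25 on replicate 1 and by 0.36 on replicate 2, well beyond their spot SDs of at most 0.077. The intervals of the means ran from 0.825-fold to 1.28-fold and from 0.766-fold to 1.28-fold.

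Of the 3 Cacna1h probes, A_55_P1986596 (chr17:25511235-25511294, minus strand) was the one with a strong signal. It stood at 1330 in Rbpj-cKO and 1416 in control on replicate 1, and at 1242 and 1000 on replicate 2, giving ratios of -0.08 and 0.29 and a mean of 0.10 ± 0.26 (interval 0.844-fold to 1.37-fold). The other 2 start 57590 and 58583 bases from it, 993 bases apart, at chr17:25568825-25568884 and chr17:25569818-25569877, both on the minus strand. They were dim, with signals from 24.1 to 31.6 and from 13.9 to 17.9, yet well above background on at least 3 of 4 spots in every channel. Their ratios were -0.003 and 0.13, and 0.05 and 0.03, none of which exceeded its spot SD by more than 1.5 times. The background correction adds an offset of 50 to each signal, so the ratios of such dim probes understate any change.

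Ano1 encodes a chloride channel opened by calcium, which carries the pacemaker current of interstitial cells of Cajal in the gut. Its probe (chr7:151774604-151774663, minus strand) had signals of 3141 ± 120 in Rbpj-cKO and 2714 ± 148 in control on replicate 1, and of 2097 ± 68.3 and 2138 ± 58.4 on replicate 2 (SD over 3 or 4 spots). The ratio was 0.22 on replicate 1, beyond its spot SD of 0.018, and -0.07 on replicate 2, within its spot SD of 0.087. The mean was 0.08 ± 0.21, with an interval from 0.837-fold to 1.33-fold. Ano1 was the member with a match to the binding motif of Rbpj in its promoter. The motif GTGGGAA was searched on both strands in RefSeq promoters of 250 bases before to 50 after a gene's start (GRCm38.p6). The table held 9 promoters of 6 of the genes (Ano1, Cacna1c, Gja1, Hcn2, Hcn4 and Kit), and 1 of them matched, against 6.38% of all 32851 promoters. The shorter core TGGGAA, which overlaps it, was found in the same promoter and in 25.6% of all. The match reads on the opposite strand and begins 244 bases before the start, as the capitals mark in the stretch chr7:144738784-144738823 (minus strand).
Ano1 promoter: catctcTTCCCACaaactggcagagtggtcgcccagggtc

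Kit encodes the receptor for stem cell factor, which interstitial cells of Cajal, mast cells and melanocytes need. Its signal was 647.5 ± 14.3 in Rbpj-cKO and 737.4 ± 45.3 in control on replicate 1, and 507.2 ± 11.3 against 643 ± 13.7 on replicate 2. Rbpj-cKO was the lower channel on each array, in red on one and in green on the other, while its replicate 1 value lay just above the control value of replicate 2. The ratios were -0.17 and -0.35, both beyond their spot SDs of 0.080 and 0.047, and the mean was -0.26 ± 0.13, or 1.19-fold less. The size of this mean exceeded that of 95.9% of tested probes, but it did not pass the test (limma adjusted p = 1), with an interval from 0.671-fold to 1.05-fold. In bulk tissue, fewer Kit-positive cells and less Kit RNA per cell cannot be told apart.

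Mast cells and melanocytes also carry Kit, and their markers, several of them dim, had no common direction. On replicate 1, 1 of the 9 tested marker genes was lower in Rbpj-cKO, and on replicate 2, 6 of 9 were. Of 8 mast cell genes, 4 were tested, 2 of them higher and 0 lower on both arrays (16.1% and 14.7% of all genes), and the list's summed signal was 626.9 in Rbpj-cKO and 500.1 in control on replicate 1, and 406.2 and 456 on replicate 2. The mast cell genes Cma1, Fcer1a, Ms4a2 and Tpsab1 were not well above background in any channel. Cpa3, a mast cell protease, had ratios of 0.27 and 0.03, and Hdc, the enzyme of histamine synthesis, 0.29 and 0.60. The proteases Tpsb2 and Mcpt4 had 0.30 and -0.35 and 0.31 and -0.06. Tpsb2 gave most of the list's summed signal, at 451.9 in Rbpj-cKO and 369 in control on replicate 1, and 274.6 and 349.1 on replicate 2. Mcpt4 was dim, with signals from 9.83 to 25.2. Of 6 melanocyte genes, 5 were tested, 1 higher and 1 lower on both arrays, with summed signals of 624.2 and 554.3, and of 526.6 and 496.8. Dct, an enzyme of melanin synthesis, had 0.41 and -0.08, and Mitf, a regulator of melanocytes, had 0.18 and 0.12. Pmel, a melanosome protein, had -0.003 and -0.08, and Tyrp1 was not well above background in any channel. Mitf gave most of the melanocyte list's summed signal, at 498.1 in Rbpj-cKO and 441.6 in control on replicate 1, and 432.5 and 392.1 on replicate 2. Dct was dim, with signals from 6.5 to 16.4, and in control on replicate 1 was well above background on 0 of 4 spots. The part of these cells in the Kit ratio was not tested.

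Gja1 encodes connexin 43, a gap junction protein found in many smooth muscles. Its signal (chr10:56109814-56109873, plus strand) was 155.6 ± 8.98 in Rbpj-cKO and 172.5 ± 3.78 in control on replicate 1, and 136.6 ± 7.63 and 130.1 ± 9.64 on replicate 2. The ratios were -0.10 and 0.03, the latter within its spot SD of 0.065. The mean of -0.04 ± 0.09 had an interval from 0.784-fold to 1.21-fold.

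**Figure D2:**
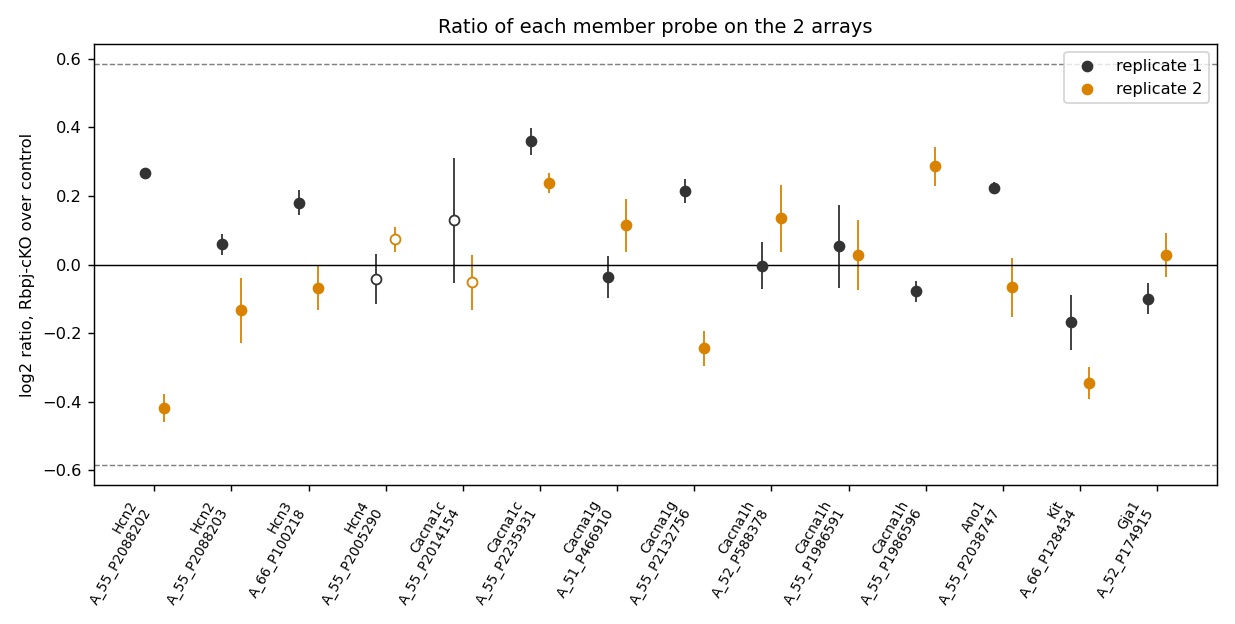
Log2 ratio of Rbpj-cKO over control for each member probe on replicate 1 (black) and replicate 2 (orange). Bars are SDs over spots, open points are probes that did not enter the test, and dashed lines mark 1.5-fold. Cacna1c (A_55_P2235931) is above 0 on both arrays and Kit below 0 on both, and all points lie between the dashed lines.

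The members' ratios were set against those of all tested probes. Their median ratio was 0.056 on replicate 1 and -0.020 on replicate 2, and 0.040 for the mean of both, against 0.00023, -0.00086 and -0.0063 over all tested probes. The median size of the mean ratio was 0.061 for the members and 0.050 for all tested probes. Of the 12 probes, 0 differed by 1.5-fold or more in a shared direction, as 0.159% of all tested probes did (0.104% higher and 0.0556% lower). None differed by 1.5-fold in opposite ways, as 0.604% of all did, and 96.4% of all stayed under 1.5-fold on both arrays as the 12 did. Higher on both arrays were 2 probes, Cacna1c A_55_P2235931 and Cacna1h A_55_P1986591 (15.4% of all tested probes) and lower on both was 1 (15.5%). Opposite signs were found for 9 of the 12 (75%) and for 69% of all tested probes, so the share of members with opposite signs was near that of the array. The interval of each of the 12 means lay within 0.671-fold and 1.53-fold on this scale, which understates the change of dim probes.

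**Figure D3:**
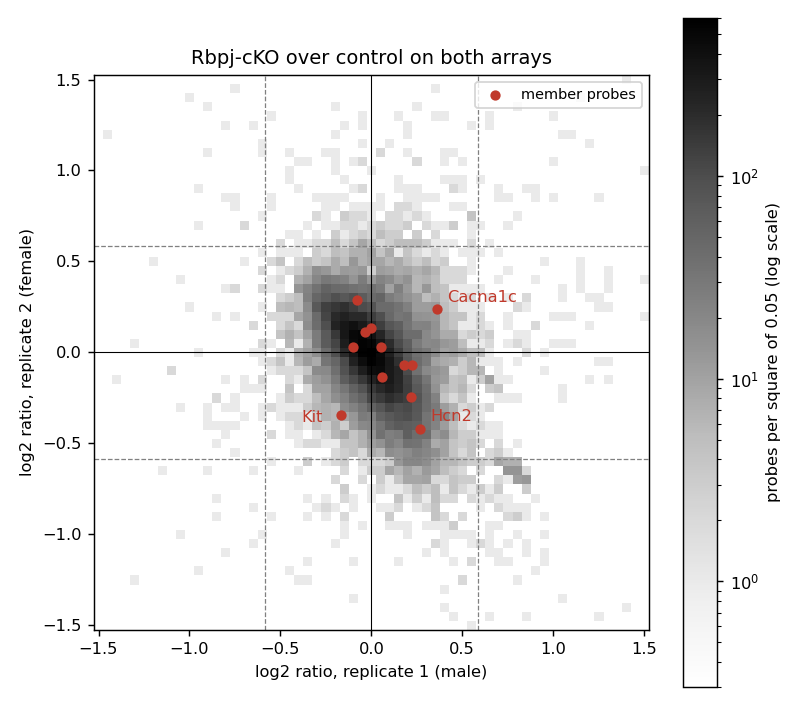
Log2 ratios of Rbpj-cKO over control on replicate 1 (x axis) and replicate 2 (y axis). Grey squares give the number of tested probes per 0.05 by 0.05 (log scale), ratios outside the axes are not drawn, red points are the 12 tested member probes, and dashed lines mark 1.5-fold. The grey cloud slopes downward (r = -0.365), and the member points lie inside it, Cacna1c and Kit on the side of equal signs.

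The 9 probes with opposite signs split by dye. Red was the higher channel on both arrays for 5 of them (both Hcn2 probes, Hcn3, Ano1 and the Cacna1g probe A_55_P2132756), and green for 4 (Gja1, the Cacna1g probe A_51_P466910 and the Cacna1h probes A_52_P588378 and A_55_P1986596). Across all tested probes, 34.6% had the first pattern and 34.4% the second. The gap between replicate 1 and the mean of the 2 arrays went with base composition over the array. Its median was -0.077 for the 349 probes with under 30% G and C, -0.042 at 35 to 40%, 0.064 at 50 to 55% and 0.11 for the 180 probes at 60% or more. The Hcn2 probe A_55_P2088202, with 81.7% G and C, had a gap of 0.34, and the second Hcn2 probe, with 60%, had 0.096. The Cacna1g probes with 36.7% and 50% had -0.075 and 0.23. Ano1, with 35%, had 0.15, opposite in sign to the median of -0.042 for probes of like composition, and Cacna1h A_55_P1986596, with 41.7%, had -0.18. With the median of probes of like G and C content subtracted, an alternative chosen after seeing the data, the ratios of Hcn2 A_55_P2088202 were 0.199 and -0.284.

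**Figure D4:**
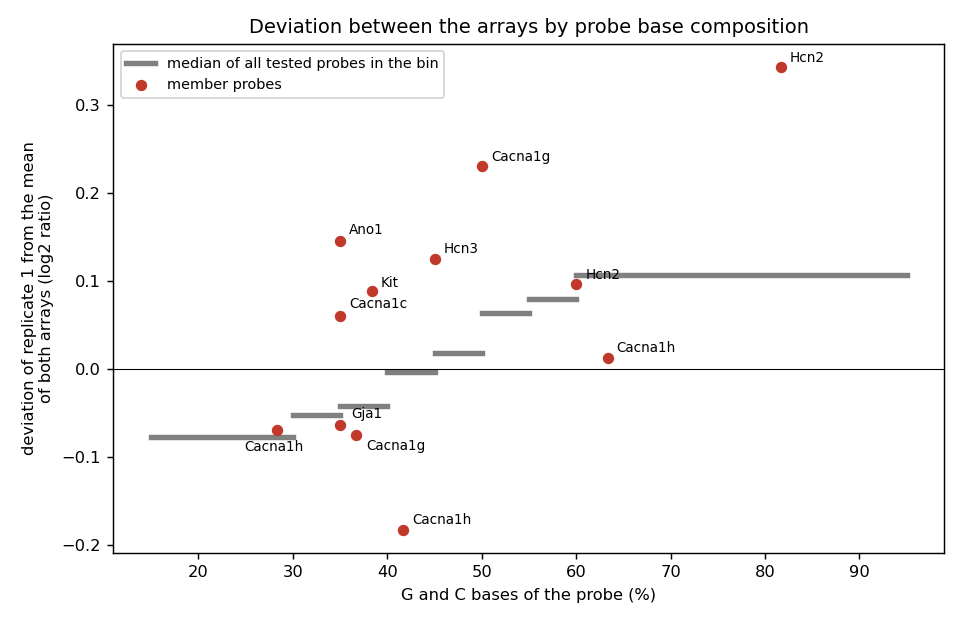
Gap between replicate 1 and the mean of the 2 arrays (log2 ratio) against the share of G and C bases of the probe. Red points are the 12 tested member probes, and grey bars are medians of all tested probes within a range of base composition, the outermost bars being cut at the edge of the plot. The grey medians rise from -0.077 to 0.11, and Hcn2, at 81.7% G and C, is the highest member at 0.34.

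The same question was asked of 87 further genes, comprising other pacemaker, calcium, potassium, sodium and chloride channels, calcium stores and pumps, other connexins and the Kit pathway. For these the brightest probe stood for each gene and 76 were tested, among 20495 genes. By limma 0 passed an adjusted p of 0.05 (0% of all genes) and 3 had an unadjusted p under 0.05 (1.82% of all genes). Beyond 1.5-fold in a shared direction was 1 gene, Gjd2, which was higher (0.195% of all genes, 0.132% higher and 0.0634% lower). Their median ratio was 0.034 on replicate 1, -0.022 on replicate 2 and 0.011 for the mean. Of the 76, 18 were higher on both arrays (16.1% of all genes), 13 were lower (14.7%) and 45 had opposite signs (69.2%, of which 34.3 points were higher on replicate 1 and 34.9 points on replicate 2). Of the 76, 69 stayed under 1.5-fold on both arrays (90.8%), against 96.2% of all genes, and 4 were beyond it on 1 array only.

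Gjd2 encodes connexin 36, a gap junction protein of neurons and endocrine cells. Its signals were 82.9 in Rbpj-cKO and 33.7 in control on replicate 1, and 37.6 and 11.5 on replicate 2, so that Rbpj-cKO was higher on each array. Its ratios were 0.90 and 0.84, a mean of 0.87 ± 0.046 (limma adjusted p = 0.429). Gjd2 was dim, so the offset added in the background correction makes both ratios understate the change. The understatement is greater on replicate 2, where its signals were lower. The small SD between the arrays therefore holds for this scale and not for the signals themselves. Neuron and chromaffin cell markers were higher as well, 8 of 9 on both arrays (16.1% of all genes), with 0 lower and 1 of opposite signs. At least 1.5-fold higher on both arrays were 4 of them (0.132% of all genes), among them Chga (2.11 and 0.95) and Phox2a (0.64 and 1.26). By limma 7 of the 9 had an unadjusted p under 0.05 (1.82% of all genes) and 0 an adjusted p under 0.05. The summed signal of these markers was 37110 in Rbpj-cKO and 10690 in control on replicate 1, and 10920 and 6196 on replicate 2. The part of these cells in the Gjd2 ratio was not tested. Among the other 13 connexin genes tested, Gja5, a connexin of arterial endothelium, had 0.25 and 0.32, while its other tested probe had a mean of 0.03. Gjb1 and Gjb5 were also higher on both arrays, with means of 0.16 and 0.04. Lower on both were Gjb2 (-0.10 and -1.35), Gja4 (-0.005 and -0.06) and Gjc1, connexin 45 of smooth muscle and heart (-0.07 and -0.002). Gjb6, a connexin of skin and inner ear, had 0.04 and -0.84. None of these passed the test (limma adjusted p = 1 for each).

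In the Kit pathway list 10 of 10 genes were tested. On both arrays 6 were lower (14.7% of all genes) and 0 higher (16.1%). Besides Etv1, the lower ones were Cbl (-0.0002 and -0.13), Pik3r1 (-0.10 and -0.15), Spry4 (-0.04 and -0.04), Src (-0.10 and -0.04) and Stat5a (-0.01 and -0.06). The ratios of Spry4, Src and Stat5a lay within their spot SDs on both arrays. Etv1, a transcription factor that interstitial cells of Cajal in the gut need together with Kit, had the smallest p of the list and was 1 of the 3 genes counted above with an unadjusted p under 0.05. Its signals were 2573 in Rbpj-cKO and 3569 in control on replicate 1, and 2004 and 2701 on replicate 2, so that Rbpj-cKO was lower on each array and both Rbpj-cKO values lay below both control values. Its ratios were -0.45 and -0.47, a mean of -0.46 ± 0.0087, with an interval from -0.77 to -0.15 (limma adjusted p = 1), and its other probe had a mean of -0.32. The 4 with opposite signs were Kitl, the ligand of Kit (-0.28 and 0.03), and the signalling genes Grb2, Lyn and Stat5b, with means from -0.02 to 0.06. The median ratio of the list was -0.045 on replicate 1 and -0.090 on replicate 2.

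Of the 24 other pacemaker and calcium channel genes 20 were tested. On both arrays 2 were higher (16.1% of all genes), 2 were lower (14.7%) and 16 had opposite signs (69.2%). Higher were Trpc6, a cation channel of smooth muscle (0.26 and 0.32), and the related Trpc1 (0.04 and 0.19). Trpc1 was dim, with signals from 6.08 to 12. Lower were Cacna2d3 and Cacna2d1, auxiliary calcium channel subunits, at -0.22 and -0.23 and at -0.02 and -0.21. Cacna1s, the L-type channel of skeletal muscle, had 0.64 and -1.07. Of 15 calcium store and pump genes 14 were tested, with 4 higher, 1 lower and 9 opposite. Higher were the inositol trisphosphate receptors Itpr1 and Itpr2, the reticulum pump Atp2a3 and the sodium-calcium exchanger Slc8a1, with means from 0.02 to 0.12, and lower was Itpr3, with a mean of -0.08. Ryr1, the calcium release channel of skeletal muscle, had 0.60 and -0.73. Cacna1s and Ryr1 differed from control by at least 1.5-fold but in opposite ways, 2 of the 76 genes against 0.717% of all genes. The 9 markers of skeletal and cardiac muscle, which include these 2, gave 8 tested genes. All 8 had opposite signs on the 2 arrays (69.2% of all genes). Of them 5, Cacna1s and Ryr1 included, were at least 1.5-fold in opposite ways (0.717% of all genes). The list's summed signal was 2295 in Rbpj-cKO and 1367 in control on replicate 1, and 1175 and 2904 on replicate 2. Myog had 0.22 and -0.96, and Myod1 0.09 and -0.91. The part of skeletal muscle in the Cacna1s and Ryr1 ratios was not tested.

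Among 21 potassium, sodium and chloride channel genes 18 were tested. On both arrays 7 were higher (16.1% of all genes), 1 was lower (14.7%) and 10 had opposite signs (69.2%). Scn3a, a sodium channel of neurons, had 0.21 and 0.30, and means of 0.17 and 0.22 by its 2 other tested probes. The 1 lower gene was Kcnh2, a potassium channel of the heart, at -0.10 and -0.08. Neither passed the test (limma adjusted p = 1 for both).

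**Figure D5:**
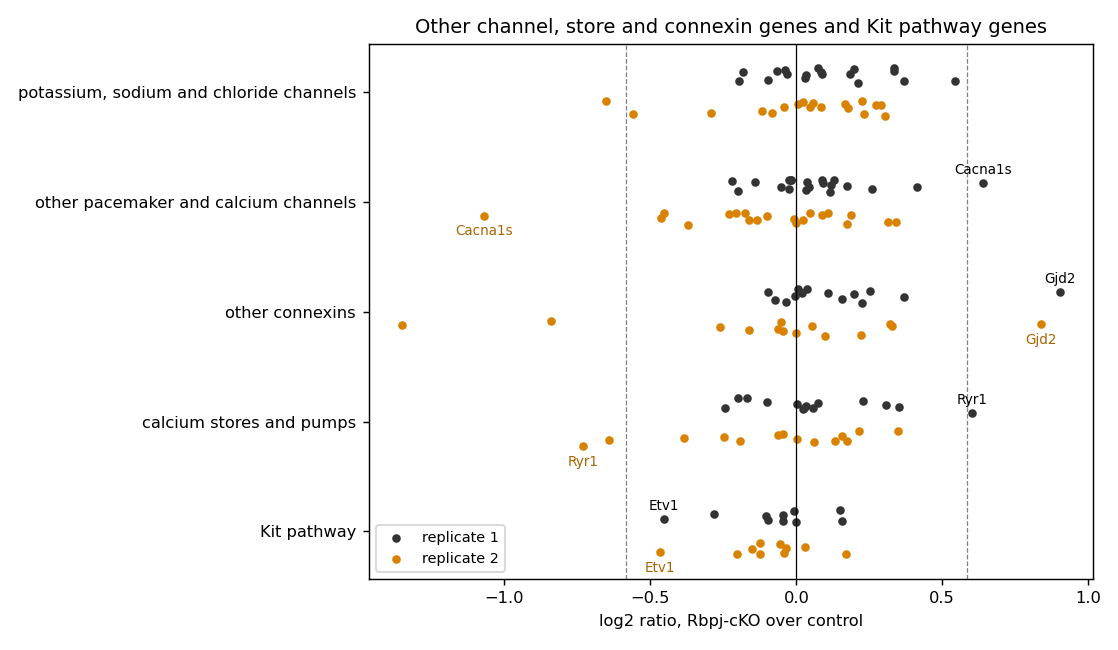
Log2 ratio of Rbpj-cKO over control on replicate 1 (black) and replicate 2 (orange) for the 76 tested genes of the lists named at the left, 1 point per gene and array. Dashed lines mark 1.5-fold and the vertical scatter within a row has no meaning. Gjd2 lies beyond 1.5-fold higher on both arrays, Etv1 lies near -0.46 on both, and Cacna1s and Ryr1 lie on opposite sides.

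Markers of smooth muscle had no common direction over both arrays. On replicate 1, 3 of its 8 marker genes were lower in Rbpj-cKO, and on replicate 2, 7 of 8 were. On both arrays 1 was higher (16.1% of all genes), 3 were lower (14.7%) and 4 had opposite signs (69.2%). The list's summed signals were 9367 in Rbpj-cKO and 8245 in control on replicate 1, and 6655 and 8407 on replicate 2. Acta2, smooth muscle actin, had 0.52 and -0.77, while Cnn1, calponin of smooth muscle, had -0.29 and -0.31. Myocd, a coactivator of smooth muscle genes, had -0.67 and -1.04 (limma adjusted p = 0.651). It was the 1 gene of the list at least 1.5-fold lower on both arrays, as 0.0634% of all genes were. Tagln, transgelin, had 0.24 and 0.10, and Myh11, smooth muscle myosin, 0.04 and -0.14. Myh11 was dim, with signals from 7.61 to 14.4, and in Rbpj-cKO on replicate 2 was well above background on 1 of 4 spots. Its ratios therefore understate any change. The part of smooth muscle cells in the members' ratios was not tested.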

How the data were processed

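Both genotypes' RNA (150 ng input, per the labels' protocols) was hybridised on each of 2 arrays. Spot mean and background intensity values were deposited on a linear scale without normalization, and the processed intensity had its background and spatial trend removed and its dyes balanced by the scanner software, per the file headers. The submitters' processing notes name Feature Extraction 10.7.3.1. The deposited log10 ratio is red over green of the processed signals, per the file headers. Flags for background, saturation and outliers were deposited as other values of 0 or 1. The deposited series table holds a score per probe and array. It was read as a signed fold change of Rbpj-cKO over control, since its signed log2 size ran with the ratios used here (r = 0.943 and 0.948 across probes), its median is 1 on both arrays and no value lies between -1 and 1. Its centring is not given in the sources used.

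Background was corrected with normexp (offset 50) and ratios by loess with weight 0 for 17263 control spots (limma 3.58.1, R 4.3.3). Spots flagged as outliers (3.57% and 3.9%) were dropped and none was saturated. The ratio of a probe is the mean over its spots, with the sign turned on replicate 2 so that it reads Rbpj-cKO over control. Probes with at least 2 of 4 spots well above background in 1 channel on each array were tested against 0 with lmFit and eBayes (two-sided, Benjamini-Hochberg adjustment over 26980 probes, 1 residual and 6.19 prior degrees of freedom). For the further genes the test was run on the brightest probe of 20495 genes, 28328 probes being named by RefSeq accession. Signals quoted are means of processed intensity. With 2 arrays an exact sign-flip test cannot go below p = 0.5, and the number of arrays limits the precision. The replicates are separate samples of different sex, and the embryos behind each are not counted in the labels. The p-values rest on the spread between the 2 arrays, in which sex, dye orientation and embryo pool cannot be told apart. With 1 residual and 6.19 prior degrees of freedom, the variance estimate leans mostly on the spread of all tested probes. The procedure was tested on simulated spots, with planted changes larger than any ratio of the members. Changes as small as those of the members were not simulated.

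The members and lists were chosen with earlier results of these data known. Named genes are all members and listed genes past 1.5-fold on both arrays in a shared or in opposite directions. The 6 further listed genes with the smallest p were added, as were the 3 nearest to the member with the largest mean. Each marker list described above gave up to 2 genes with the smallest p and some fixed genes. Krt5 is named below as the urothelium gene with the smallest p. The rest (Tpsb2, Mcpt4, Pmel, Cacna2d1, Cacna2d3, Trpc1, Itpr1, Itpr2, Itpr3, Atp2a3, Slc8a1, Kcnh2, Gjb1, Gjb5, Gjc1, Gja4, Kitl, Grb2, Lyn and Stat5b) were chosen after their values were seen, to name counts of 5 or fewer or the markers that go with them. In the same way Cbl, Pik3r1, Spry4, Src and Stat5a were chosen to name the genes of the Kit pathway list lower on both arrays. For lists not described further, genes higher and genes lower in both replicates were 2 and 2 of 6 for endothelium, 0 and 0 of 4 for erythroid cells, 1 and 2 of 4 for nephron and stroma, 2 and 3 of 8 for urothelium, and 0 and 2 of 6 for ureteric mesenchyme. Over all genes the shares were 16.1% and 14.7%. Krt5 of the urothelium list had ratios of -0.36 and -1.25.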

Additional observations from a re-analysis of the deposited data

Results flagged for a closer look

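Cacna1s and Ryr1 were at least 1.5-fold different on both arrays but in opposite ways, higher in Rbpj-cKO in the male pair and lower in the female pair. The log2 ratios of the 2 pairs lay 1.71 apart for Cacna1s and 1.33 apart for Ryr1. With 1 array per sex and the dyes exchanged, this difference was not tested.

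Ddx3y and Eif2s3y, which are Y-linked, gave a signal in female Rbpj-cKO above that in female control, at 8.04% and 8.89% of the male Rbpj-cKO signal.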

How the results depend on the processing

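No member probe passed the test under any of the alternatives, with adjusted p = 1 in each. The test of the ratio within each array is itself paired, and the arrays share no further replicate number to block on. Over the settings with both arrays, the mean ratio of Cacna1c A_55_P2235931 ran from 0.285 to 0.315 and that of Kit from -0.274 to -0.257, and the other tested members kept their sign, except that Cacna1g A_55_P2132756 turned to 0.0109 when the median of probes of like G and C content was subtracted, an alternative added after seeing the data. That setting put 2 probes, Kit and Gja1, lower on both arrays in place of 1. It kept 2 higher but exchanged Cacna1h A_55_P1986591 (-0.0139 and 0.162) for A_52_P588378 (0.0572 and 0.0451), and median centring exchanged it (-0.074 and 0.142) for A_55_P1986596 (0.077 and 0.105). With replicate 1 or replicate 2 left out, a single array remains and no test. The members' median was then -0.0196 to 0.0562, with 6 to 7 probes higher, 5 to 6 lower and 0 beyond 1.5-fold, and over all probes 403 to 775 were beyond 1.5-fold. Probes called by limma over the array were 3 with Agilent's processed signals, 8 with a normexp offset of 10 and 10 with an intensity trend and robust moderation, against 0. Probes at least 1.5-fold the same way were 108 with processed signals, 108 with the authors' series table and 9 at 2-fold, against 43. Median centring in place of loess moved the median of all probes to 0.112 and -0.132. The causes of these shifts were not tested. Hcn4 and the dim Cacna1h probes are limited by signal over background.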
